A study of Mus musculus with 8 samples.

Results

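The mitochondrial ribosomal protein genes were taken as the protein-coding genes of the RefSeq table for the mouse assembly GRCm38.p6 whose symbol starts with Mrpl or Mrps followed by a digit. There were 78 of them among 21887 protein-coding genes, 49 named for the large subunit (Mrpl) and 29 for the small subunit (Mrps). A gene was counted as bound by a protein when the centre of a peak of that protein lay within 1000 bp of either end of the gene. The rule uses names and positions and no measured value, although the set was chosen with earlier results of these data known. Qki-5, PPARb, HA and Pol II were mapped by chromatin immunoprecipitation with sequencing (ChIP-seq), which recovers and counts the DNA fragments that an antibody pulls down with a protein. Qki-5 is the nuclear form of the RNA-binding protein Quaking, PPARb, the product of Ppard, is a nuclear receptor that responds to fatty acids, HA is the tag on the introduced PPARb, and Pol II is the RNA polymerase that transcribes protein-coding genes.

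Differentiated oligodendrocytes were made from neural stem cells of an FvB/C57BL6 hybrid strain that expressed PPARb ectopically with an HA tag, were kept in medium with insulin-like growth factor 1 and thyroid hormone, and were at passage 7. They gave 1 library each for Qki-5, PPARb, HA and Pol II. All of those libraries come from cells with the introduced receptor, so the PPARb antibody can recover the native and the tagged protein there, and no library of differentiated cells without it was analysed here. Isolated oligodendrocytes came, per the labels, from brains of C57BL6 mice by O4 magnetic beads, at passage 0, and gave 1 library each for Qki-5 and PPARb. The labels repeat the differentiation medium for these cells too, so whether they were cultured is unclear. Strain, origin, the introduced receptor and the input library differ together between the cell kinds, and their effects cannot be told apart. With 1 library per antibody and cell kind, the replicate error of the values below is unknown and none is given a test. Genes are not replicates either.

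Library depth ran from 12624236 to 24880851 tags, and the lists of differentiated cells held 30179 peaks of Qki-5, 26406 of PPARb, 30042 of HA and 13270 of Pol II, next to 8380 of Qki-5 and 1393 of PPARb in isolated cells. Only 0.85% and 0.12% of the tags of the isolated Qki-5 and PPARb libraries lay in peaks, so binding there may go undetected at the depth reached. As a check of the labels, oligodendrocyte marker genes were looked up. Pol II peaks of differentiated cells lay at Cnp and Olig1 and at none of Mbp, Mag, Mog, Mobp, Sox10 and Olig2, and Qki-5 peaks of isolated cells lay at Cnp, Mag and Mobp. Of these 8 markers Qki-5 of differentiated cells lay at Cnp alone and PPARb at Olig1 alone, where 46.3% and 42.1% of all genes carried them. In isolated cells Qki-5 also lay at 2 of 5 endothelial markers, Cldn5 and Flt1, and at none of the precursor, astrocyte, neuron and microglia markers. In differentiated cells Pol II lay at 2 of 4 precursor, 2 of 5 neuron and 1 of 5 astrocyte markers, and at none of the 5 microglia and 5 endothelial ones, where 36.4% of all genes had Pol II. Qki-5 lay there at 4 of 5 neuron markers, 2 of 4 precursor and 1 of 5 astrocyte markers, and PPARb at 2, 2 and 1 of them. Most of the 8 oligodendrocyte markers thus had no peak of Qki-5, PPARb or Pol II within 1000 bp of a gene end in differentiated cells. Peaks deeper inside the marker genes were not counted. Peaks at a marker show binding and not the level of its RNA, and what these markers add to the member values was not tested.

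Mitochondrial ribosomes translate the few messenger RNAs encoded by mitochondrial DNA, all of which specify core subunits of the respiratory chain and of ATP synthase. Their RNA is mitochondrial, but every protein subunit is encoded in the nucleus, made in the cytosol and imported, so their assembly needs many nuclear genes to be active together. The small subunit binds the messenger RNA and decodes it, and the large subunit joins the amino acids and feeds the new chain into the inner membrane. Subunits follow the gene symbols here, although the products of Mrps18a and Mrps30 are now placed in the large subunit, and the product of Mrps36 is known as a part of the 2-oxoglutarate dehydrogenase complex.

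Promoter sequences are shown first, because nearly all member peaks near a gene end lay at the start, as at other genes. For Qki-5 in differentiated cells this held for 61 of 62 bound members with a known strand (98.4%), against 95.0% of other genes. Of the 78 members, 69 had a promoter window in the RefSeq table, running from 250 bases before an annotated start to 50 bases from it on. The stretches below are the bases before the start on GRCm38.p6, cut where another protein-coding gene begins, written 5′ to 3′ along the gene, with capitals on every match of GCATGCG (NRF1), CTTCCGG (ETS factors), AAGATGG (YY1), GGGCGG (SP factors), AGGTCA (the PPAR half-site) and ACTAAC (the RNA element that Quaking proteins bind), on either strand. Mrpl49 (chr19:6057756-6057946, minus strand), Mrpl47 (chr3:32736756-32737005, minus), Mrps16 (chr14:20393635-20393884, minus) and Mrps18b (chr17:35916441-35916511, minus) are shown because they carried peaks in all 6 lists and ranked highest among such members for Qki-5 and PPARb height in differentiated cells. Mrpl17 (chr7:105811088-105811337, minus), Mrpl58 (chr11:115403502-115403751, plus), Mrps27 (chr13:99344679-99344785, plus) and Mrps18a (chr17:46110754-46111003, plus) were added after their values were seen, as members with ETS or NRF1 letters before the start.
Mrpl49: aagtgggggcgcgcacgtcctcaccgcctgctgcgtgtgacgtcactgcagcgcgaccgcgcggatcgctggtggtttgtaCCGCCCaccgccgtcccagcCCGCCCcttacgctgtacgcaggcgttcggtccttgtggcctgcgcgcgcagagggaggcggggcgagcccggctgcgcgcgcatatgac
Mrpl47: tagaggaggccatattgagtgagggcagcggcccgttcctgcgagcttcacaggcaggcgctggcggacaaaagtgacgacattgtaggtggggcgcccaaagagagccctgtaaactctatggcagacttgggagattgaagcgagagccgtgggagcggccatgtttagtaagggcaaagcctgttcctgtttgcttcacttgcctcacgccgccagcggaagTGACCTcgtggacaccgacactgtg
Mrps16: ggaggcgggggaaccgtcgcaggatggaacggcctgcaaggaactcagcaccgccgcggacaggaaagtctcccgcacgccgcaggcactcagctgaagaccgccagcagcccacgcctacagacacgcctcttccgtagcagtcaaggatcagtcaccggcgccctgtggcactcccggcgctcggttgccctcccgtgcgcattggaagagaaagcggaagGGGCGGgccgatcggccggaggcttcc
Mrps18b: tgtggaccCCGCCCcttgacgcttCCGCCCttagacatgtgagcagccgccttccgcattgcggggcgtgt
Mrpl17: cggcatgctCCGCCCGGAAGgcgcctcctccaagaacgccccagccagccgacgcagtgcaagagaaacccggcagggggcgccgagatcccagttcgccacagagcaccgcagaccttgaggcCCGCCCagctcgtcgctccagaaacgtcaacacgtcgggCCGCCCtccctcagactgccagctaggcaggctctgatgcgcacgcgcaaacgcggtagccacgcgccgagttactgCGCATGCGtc
Mrpl58: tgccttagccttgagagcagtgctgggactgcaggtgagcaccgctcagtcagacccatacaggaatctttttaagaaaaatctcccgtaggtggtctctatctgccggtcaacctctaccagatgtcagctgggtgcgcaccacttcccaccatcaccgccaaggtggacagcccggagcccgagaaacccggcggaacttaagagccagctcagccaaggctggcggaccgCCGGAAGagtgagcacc
Mrps27: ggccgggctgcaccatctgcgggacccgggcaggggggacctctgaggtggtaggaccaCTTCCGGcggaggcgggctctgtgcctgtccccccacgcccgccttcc
Mrps18a: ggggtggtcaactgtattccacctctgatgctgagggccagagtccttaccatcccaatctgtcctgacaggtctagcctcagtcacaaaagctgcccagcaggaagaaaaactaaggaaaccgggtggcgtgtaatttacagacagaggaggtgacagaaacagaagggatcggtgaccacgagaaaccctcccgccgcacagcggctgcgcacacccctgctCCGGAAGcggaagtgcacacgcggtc

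The ETS letters stood in the whole window of 26 of the 69 members (37.7%), against 12.9% of all 17492 protein-coding genes with a window, and in 23.1% of the other genes that carried both Qki-5 and PPARb at a start in differentiated cells. ETS factors such as GABP, also called NRF2, and the unrelated factor NRF1 are known regulators of nuclear genes for mitochondria. The NRF1 letters stood in 8 members (11.6%), against 4.96% of all genes and 8.57% of those other bound genes, and its longer form CGCATGCG, which contains them, in 7 (10.1%), against 2.77% and 5.20%. The YY1 letters stood in 13 members (18.8%), against 7.18% and 8.78%, and the longer AAGATGGCG in 8 (11.6%), against 2.14% and 4.06%. Either the ETS or the NRF1 letters stood in 30 members (43.5%), against 16.9% and 29.8%, and 4 members held both, Mrpl17, Mrpl22, Mrpl33 and Mrps18b. The whole window runs past the start and can reach into a neighbouring gene. At Mrps18b the ETS and NRF1 letters lie outside the 71 bases printed above, which are cut at Ppp1r10.

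The letters tied to PPARb and Quaking were found in members about as often as in all genes. The PPAR half-site stood in 11 members (15.9%), against 16.7% of all genes and 13.5% of the other bound genes. The full element of PPAR and its partner RXR, written as a pair of half-sites in the same direction 1 base apart with no mismatch, was in none of the 69 members and in 0.0572% of all genes. The Quaking RNA element stood in 6 members (8.70%), against 6.31% and 5.77%. The SP letters, at 49.3% of members and 49.2% of all genes, stood in 74.3% of the other bound genes with Qki-5 and PPARb, and the median share of G and C in the window was 58.3% in members, against 62.3% in those other genes. For the general promoter letters, CCAAT stood in 39.1% of members and 42.3% of all genes, CACGTG in 7.25% and 8.91%, and TATAAA in 7.25% and 14.8%. In the other bound genes the shares were 43.0% for CCAAT, 12.5% for CACGTG and 7.52% for TATAAA, so for TATAAA members were near those genes. A match is a run of letters and not a shown site, and a missing match says only that these exact letters are not in the window.

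In differentiated cells most mitochondrial ribosomal protein genes carried peaks of all 4 antibodies. The PPARb and HA antibodies can recover the same tagged receptor, so these are not 4 different proteins. Qki-5 was at 70 of 78 members (89.7%), against 46.3% of all protein-coding genes. PPARb was at 68 members (87.2%), against 42.1%, and HA at 71 members (91.0%), against 46.5%. Pol II was at 61 members (78.2%), against 36.4% of all genes. Qki-5 and PPARb were both at 66 members (84.6%), against 40.0%, and peaks of all 4 antibodies at 57 members (73.1%), against 31.8%. No peak in any of the 6 lists was found at 5 members (6.41%), against 48.4% of all genes.

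Isolated cells showed the Qki-5 part of that pattern and little of the PPARb part. Qki-5 was at 56 members (71.8%), against 26.4% of all genes. PPARb was at 7 members (8.97%), against 5.01%. Each of those 7 also carried Qki-5 in isolated cells, as did 1010 of all 1097 genes with PPARb there. Both were thus at 8.97% of members and 4.61% of all genes. The 7 also had peaks of all 4 antibodies in differentiated cells, so they were the members in all 6 lists. Of the 1097 genes, 839 were in all 6 lists, which is 3.83% of all genes. They were Mrpl34, Mrpl47, Mrpl49, Mrpl55, Mrps16, Mrps18b and Mrps26.

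**Figure D1:**
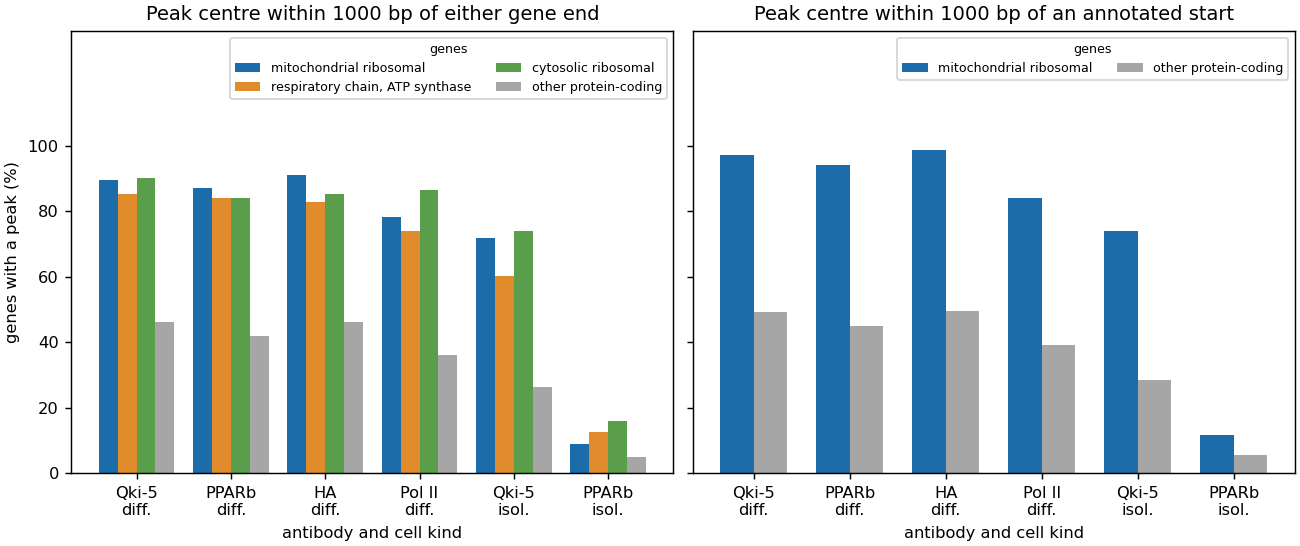
Share of genes with a peak (%) in each list, on the left by the distance to either gene end for the 78 mitochondrial ribosomal, 88 respiratory chain and ATP synthase, 81 cytosolic ribosomal and 21809 other protein-coding genes, and on the right by the distance to an annotated start for the 69 members and 17423 other genes that have one. Members stand above the other genes in every list, and close to the respiratory chain and cytosolic ribosomal genes in the differentiated-cell lists.

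The share was not particular to mitochondrial ribosomal genes. Respiratory chain subunits join the proteins made by mitochondrial ribosomes, and cytosolic ribosomes make all of the nuclear-encoded ones. Of 88 genes for nuclear-encoded subunits of the respiratory chain and ATP synthase, 73 (83.0%) carried Qki-5 together with PPARb in differentiated cells and 53 (60.2%) carried Qki-5 in isolated cells. Of 81 genes for cytosolic ribosomal proteins, the corresponding numbers were 67 (82.7%) and 60 (74.1%). None of the differences between the 3 families could be tested.

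Other gene lists tied to mitochondrial translation are set against the 40.0% of all genes with both Qki-5 and PPARb. All 5 ribosomal subunits with other names carried Qki-5 together with PPARb in differentiated cells, namely Dap3, Ptcd3, Chchd1, Aurkaip1 and Gadd45gip1. So did 18 of 19 genes for assembly of the mitochondrial ribosome and modification of its RNA, all but Nsun4, a methyltransferase of ribosomal RNA. The count was 8 of 11 for translation factors, among them the elongation factor genes Tufm, Tsfm and Gfm1, and 13 of 17 for mitochondrial aminoacyl-tRNA synthetases, which charge transfer RNAs. It was 9 of 10 for genes that maintain and transcribe mitochondrial DNA, all but Polg, the catalytic subunit of its polymerase. Of 8 nuclear regulators of such genes, 6 carried both, among them Nrf1, Yy1, Esrra and Ppargc1a, whereas the ETS factor gene Gabpa and its partner Gabpb1 did not.

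The subunits had similar shares. For Qki-5 in differentiated cells, 44 of 49 large-subunit and 26 of 29 small-subunit genes were bound. PPARb was at 41 and 27 of them, HA at 45 and 26, and Pol II at 40 and 21. In isolated cells Qki-5 was at 37 large-subunit and 19 small-subunit genes, and PPARb at 4 and 3.

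Members with Pol II could be compared with other genes with Pol II, since Pol II marks genes in use. Among them, 58 of 61 members (95.1%) carried Qki-5 together with PPARb in differentiated cells, against 89.0% of all 7956 genes with Pol II. That is a share near the background. Qki-5 in isolated cells was at 50 of the 61 (82.0%), against 59.4%. Pol II was mapped in differentiated cells only, so which genes had it in isolated cells is unknown. Of the 17 members without Pol II near a gene end, 8 (47.1%) still carried both factors, against 12.1% of all such genes. In isolated cells 6 of the 17 (35.3%) carried Qki-5, against 7.59%. Both factors were at 11 of 23 respiratory chain and ATP synthase genes without Pol II (47.8%) and at 3 of 11 cytosolic ribosomal ones (27.3%). The 17 include Mrpl18, Mrpl22, Mrpl24, Mrpl4, Mrps2 and Mrps23, which had Pol II at an annotated start or inside the gene. The 8 were Mrpl16, Mrpl17, Mrpl33, Mrps10, Mrps12, Mrps15, Mrps17 and Mrps18a, each with HA as well and with no Pol II peak anywhere in the gene. Mrps12 encodes the relative of the bacterial protein S12 at the decoding site.

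**Figure D2:**
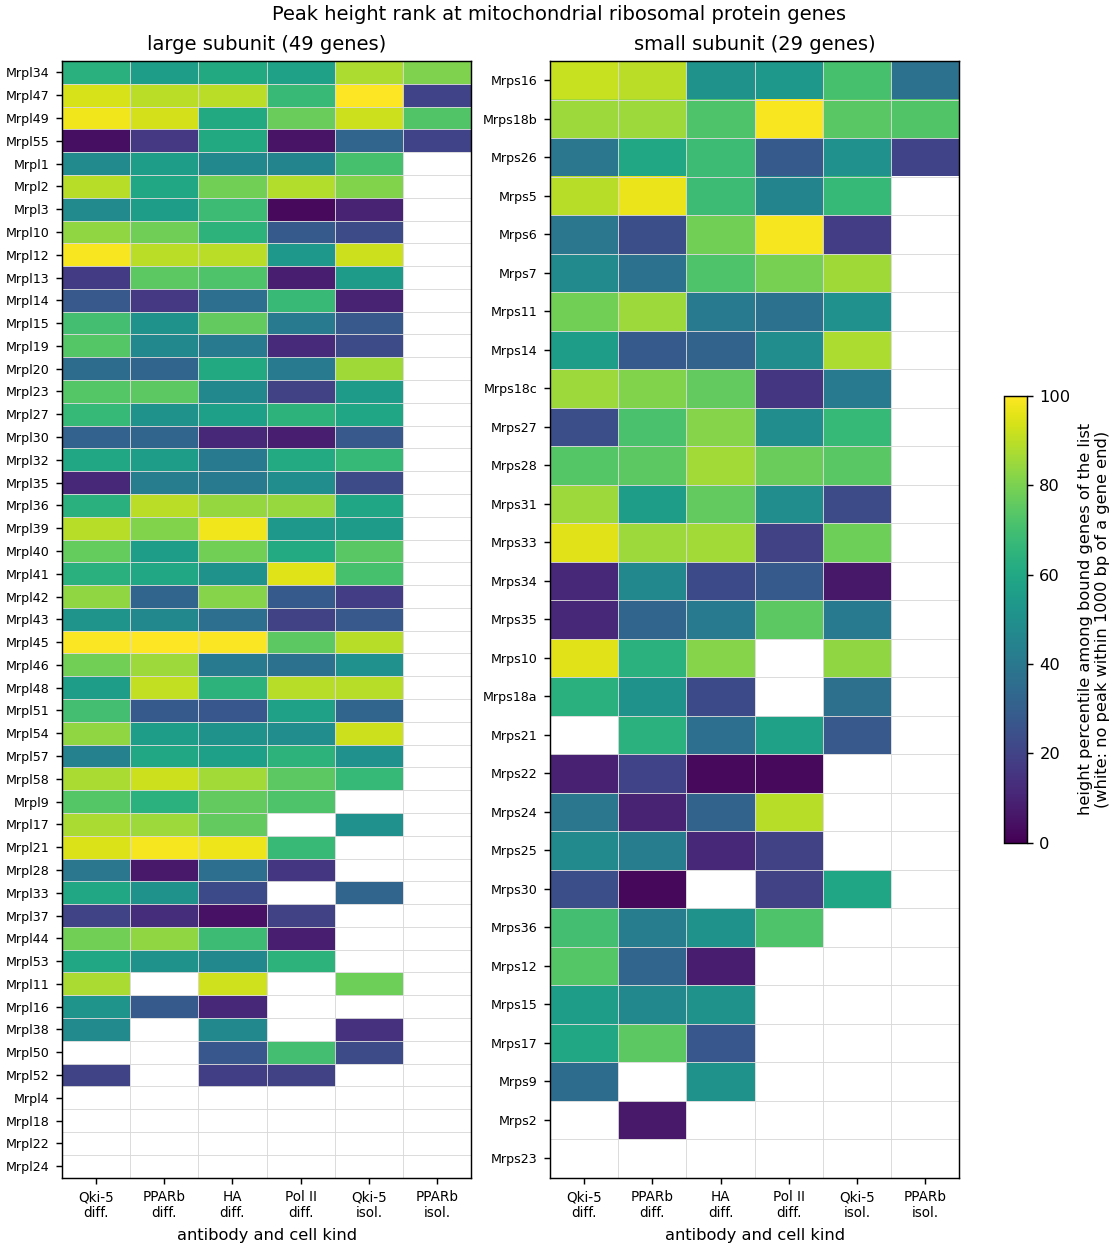
Each row is a member, each column a list, and colour is the percentile of the height of its tallest peak among all bound genes of that list (white marks no peak within 1000 bp of a gene end). The 7 members in all 6 lists stand at the top of the panels, 4 of the large and 3 of the small subunit, and the 5 with no peak by this rule at the foot.

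Every member falls into 1 of 13 patterns of lists. Besides the 7 in all 6 lists, 40 had peaks of all 4 antibodies in differentiated cells and of Qki-5 in isolated cells. Another 10 had peaks of the 4 antibodies in differentiated cells only, such as Mrpl21, Mrpl28 and Mrpl37. The 8 without Pol II make up another pair of patterns, split evenly by whether isolated cells had Qki-5. Mrpl11 and Mrpl38 carried Qki-5 in both cell kinds and HA, with no PPARb peak, and Mrps9 carried Qki-5 and HA in differentiated cells alone. Mrpl52 had Qki-5, HA and Pol II. Mrps30 had all but HA in differentiated cells, with Qki-5 in isolated cells too. Mrps21 had PPARb, HA and Pol II and Mrpl50 HA and Pol II, each with Qki-5 in isolated cells and not in differentiated ones. Mrps2 had a PPARb peak only, and the other 5 had none.

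Those 5, Mrpl18, Mrpl22, Mrpl24, Mrpl4 and Mrps23, are not unbound genes. Each had peaks of all 4 antibodies in differentiated cells and of Qki-5 in isolated cells inside the gene as RefSeq draws it, further than 1000 bp from the gene ends. At Mrpl24 the Qki-5 centre lay 78 bp and the PPARb centre 18 bp before the annotated promoter start, with heights of 16.0 and 10.7 tags per 10000000, while the RefSeq gene reaches further upstream. At Mrps23 the Qki-5 and PPARb centres lay 196 and 193 bp before the start, at heights of 15.5 and 12.9. At Mrpl22 the Qki-5 centre lay 42 bp past the start and the PPARb centre 52 bp before it, at 14.9 and 11.1, with HA at 12.7 and Pol II at 7.23 there too.

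At Mrpl18, whose start lies 238 bp from that of the chaperonin gene Tcp1 on the other strand, Qki-5 reached 25.4 and PPARb 23.6, both among the taller member values, with centres at -270 and -282 bp from the start. Mrpl4 has no promoter window in the table, and its heights inside the gene were 12.2 for Qki-5 and 14.7 for PPARb. Mrps2 was a like case, with a Qki-5 peak of 16.0 whose centre lay 6 bp past its annotated start and 2121 bp from the nearer gene end. The distance rule therefore missed peaks at starts that lie inside the drawn gene.

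Counted by annotated starts, members were bound still more often. Of the 69 members with a start, 67 (97.1%) had a Qki-5 peak within 1000 bp of it in differentiated cells, against 49.4% of the 17492 genes with a start. PPARb was at 65 (94.2%), against 45.2%, HA at 68 (98.6%), against 49.8%, and Pol II at 58 (84.1%), against 39.4%. In isolated cells Qki-5 was at 51 (73.9%), against 28.6%, and PPARb at 8 (11.6%), against 5.66%. The eighth was Mrpl48, with a PPARb peak of 9.24 at an internal start.

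A peak anywhere in the gene or within 1000 bp of it gave 76 of 78 members for Qki-5 (97.4%), against 57.2% of all genes, and all but Mrps30 for HA, 77 members (98.7%), against 56.7%. By this count PPARb was at 73 members (93.6%), against 53.1%, and Pol II at 67 (85.9%), against 44.0%. Isolated-cell Qki-5 was at 61 (78.2%), against 32.3%, and isolated-cell PPARb at 9 (11.5%), against 6.46%. The Qki-5 list of differentiated cells then lacked only Mrpl50 and Mrps21. The PPARb list lacked Mrpl11, Mrpl38, Mrpl50, Mrpl52 and Mrps9. Members near the limit of the rule included Mrps31, with centres between 882 and 949 bp from the gene end in 5 lists, and Mrpl45, at 771 to 916 bp, both just inside. Mrpl38 lay just outside, with a Pol II centre at 1055 bp and a PPARb centre at 1152 bp.

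Peaks sat close to the start and close to each other. Each gene was measured by its tallest peak within 1000 bp of an annotated start, which need not be the nearest one. The median Qki-5 centre lay 37 bp before the start in differentiated cells, and 92.5% of the 67 were within 250 bp of it, against 83.4% at other genes. The median PPARb centre lay 36 bp and the median HA centre 30 bp before the start, while the median Pol II centre lay 34 bp past it. In isolated cells the median Qki-5 centre lay 12 bp before the start. Where a member had both, the PPARb and Qki-5 centres were a median of 30 bp apart, against 52 bp at other genes, and 95.3% of the 64 pairs lay within 200 bp of each other, against 86.6%.

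**Figure D3:**
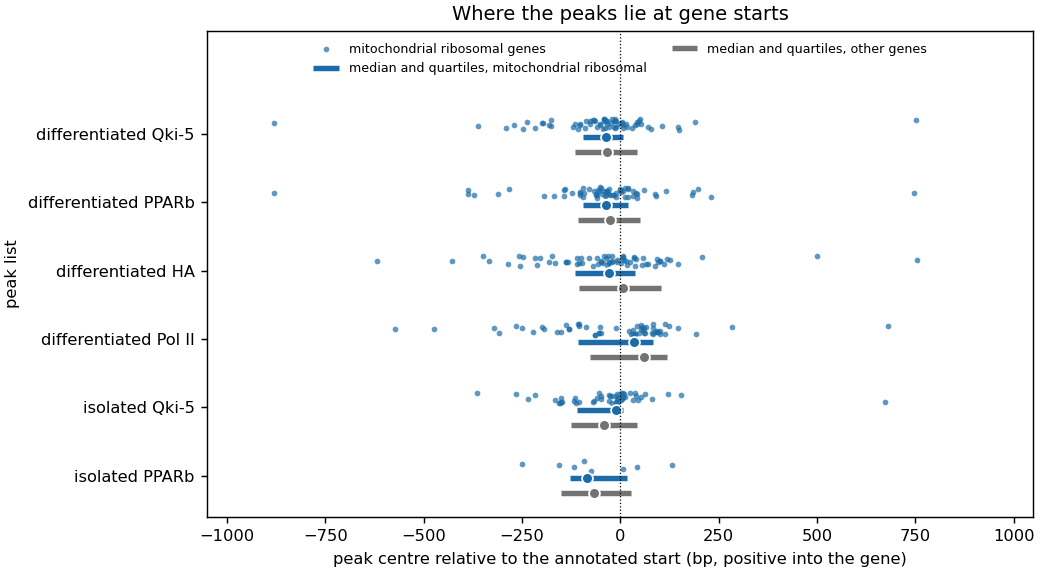
Distance in bp from the annotated start to the centre of the tallest peak within 1000 bp of it, for each list from top to bottom. Each member is a point, a blue bar and dot give the quartiles and median of members, and a grey bar and dot those of other genes. Qki-5 and PPARb points of differentiated cells cluster just before the start, with medians of -37 and -36 bp, and the Pol II median lies past it at 34 bp.

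Overlap was also counted for single sites. Of 77 Qki-5 peaks at members in differentiated cells, 66 (85.7%) overlapped a PPARb peak by at least 1 bp, against 73.1% of the Qki-5 peaks at other genes. Of 71 member PPARb peaks, 68 (95.8%) overlapped an HA peak, against 80.5%. Of the 77 Qki-5 peaks, 52 (67.5%) overlapped a Qki-5 peak of isolated cells, against 42.9% at other genes. Seen from the isolated list 52 of its 58 member peaks (89.7%) overlapped one of differentiated cells, against 84.1%, but with peaks at 8-fold over input or more the order turned round, at 70.8% of member peaks against 72.4%. All lists of differentiated cells were called against 1 input library, which they share.

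Many members had another gene close by. Another protein-coding gene ended or began within 1000 bp of 44 members (56.4%), against 24.7% of other genes. On starts, 24 of 69 members (34.8%) had the start of another gene within 1000 bp on the other strand, pointing away, against 8.37% of 17423 other genes. The partners included other genes of the same machinery. Mrpl46 and Mrps11, a large-subunit and a small-subunit gene, start 42 bp apart and shared 1 peak in each of 5 lists. Mrps12 starts 147 bp from Sars2, the mitochondrial seryl-tRNA synthetase, and Mrpl43 116 bp from Twnk, the helicase of mitochondrial DNA. Mrpl47 starts 308 bp from Ndufb5, a subunit of respiratory complex I, Mrpl21 starts 32 bp from Ighmbp2, a helicase, and Mrpl49 192 bp from Fau, whose product holds a protein of the cytosolic small subunit. Mrps27 starts 108 bp from Ptcd2, and Mrpl32 205 bp from the proteasome gene Psma2.

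A peak near the ends of several genes cannot be assigned to one of them. In differentiated cells 38 of 77 member Qki-5 peaks (49.4%) also lay within 1000 bp of an end of another gene, and in isolated cells 31 of 58 did (53.4%). The same share was not counted for peaks at other genes, so these counts do not set members apart. The high shares held where no neighbour was near. Of the 34 members with no other gene end within 1000 bp, 31 (91.2%) carried Qki-5 in differentiated cells, against 37.9% of all such genes, 29 (85.3%) PPARb, against 34.3%, and 25 (73.5%) Pol II, against 29.2%. Both Qki-5 and PPARb were at 28 (82.4%), against 32.3%, and Qki-5 of isolated cells at 25 (73.5%), against 20.2%. Of the 24 members with a divergent start, 95.8% had Qki-5 at their start in differentiated cells, against 92.5% of 1459 other genes with one. Without one, Qki-5 was at 44 of 45 members (97.8%), against 45.3% of 15964 other genes.

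Occupancy was frequent at the members, but median peak heights were near those of other bound genes, with Qki-5 of differentiated cells somewhat higher. Height is the authors' tag count of a peak scaled to 10000000 tags per library, and each gene is given its tallest peak. Member heights of Qki-5 in differentiated cells ran from 7.19 to 32.6 with a median of 16.6, against 14.9 at other bound genes, which put the median member at percentile 63.5 of bound genes. With fold over input in place of height that percentile was 50.4. The median PPARb height was 12 at members and 11.6 at other genes, the median HA height 18.2 at members and 17.4 at other genes, and the median Pol II height 10.4 at both. In isolated cells the median Qki-5 height was 11.5 at members and 11.0 at other genes, and the median PPARb height 7.61 at the 7 members and 8.16 at other genes.

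**Figure D4:**
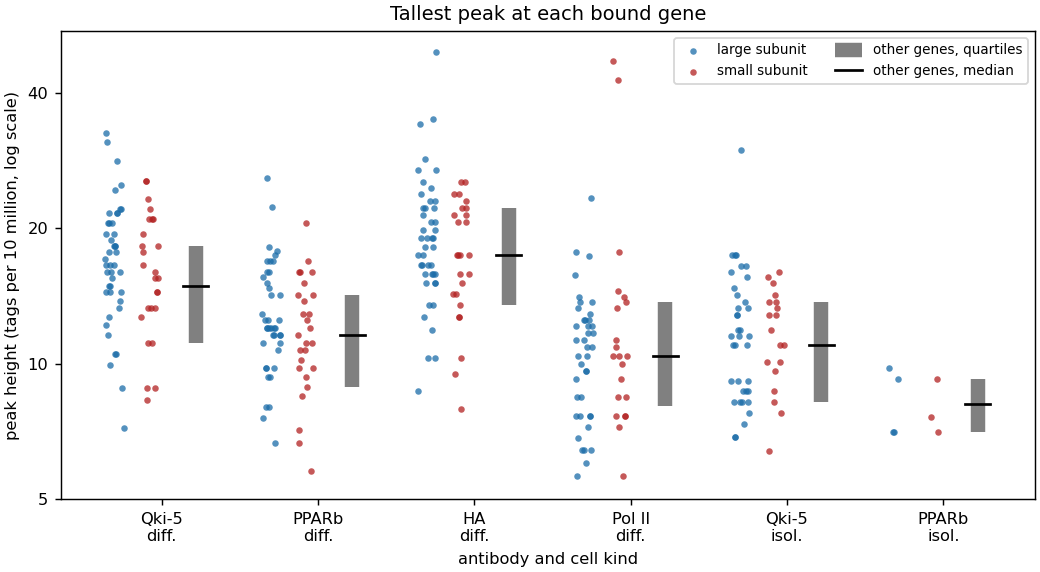
Height of the tallest peak at each bound member (tags per 10000000, log scale) by list, large-subunit genes in blue and small-subunit genes in red, beside the quartiles (grey bar) and median (black line) of other bound genes. Most members lie within or near the quartiles of other genes, with single points above, such as 49.1 for HA at Mrpl45 and 47.0 for Pol II at Mrps18b.

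Cytosolic ribosomal protein genes stood higher in some lists. The median member stood at percentile 49.1 of bound genes for Pol II, against 85.6 for the median cytosolic ribosomal protein gene, whose height was 16.1. For Qki-5 in isolated cells it stood at percentile 54.7, against 74.6 for the cytosolic genes, whose median height was 13.7. Across 66 members with both, Qki-5 and PPARb heights of differentiated cells ranked together with a Spearman rho of 0.72, against 0.67 across 8697 other genes. Qki-5 and Pol II heights ranked together less, with a rho of 0.28 across 59 members and 0.24 across other genes. The libraries share an input and the cells, and genes are not independent, so these are descriptions.

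Mrpl45, which anchors the large subunit to the inner membrane, had the tallest member peaks of Qki-5, PPARb and HA. Its heights in differentiated cells were 32.6 for Qki-5 (95% Poisson interval 24.8 to 42.1), 25.8 for PPARb (19.6 to 33.4) and 49.1 for HA (37.7 to 63.0). Its Pol II height was 13.7, and the Qki-5 height in isolated cells was 16.5. So the 3 peaks of the factors stood at or above percentile 99.5 of their lists, while Pol II stood at 74.9. The peaks, at chr11:97315668-97315868 for Qki-5 on mm10, lie inside the gene as drawn and within 123 bp of the annotated start, and no other gene end is near. These and the other intervals cover counting error only.

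Mrpl12, part of the stalk that recruits translation factors, came next for Qki-5, at 31.0 (23.4 to 40.2) in differentiated cells and 17.4 (12.3 to 23.9) in isolated cells. PPARb reached 16.9, HA 26.9 and Pol II 10.9 there. The peak lies 42 bp before the start, and the gene Hgs ends or begins within 1000 bp. Fold over input was 117.6 for Qki-5 in differentiated cells and 5.31 in isolated cells, which were called against different inputs.

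Mrpl49, shown above, had 28.2 (21.0 to 37.1) for Qki-5 in differentiated cells, where PPARb reached 18.2, HA 19.0 and Pol II 14.1, and 17.4 for Qki-5 and 9.24 (5.39 to 14.8) for PPARb in isolated cells. The Qki-5 centre lay 89 bp and the PPARb centre 122 bp before its start, between it and Fau. Mrpl47 stood highest in isolated cells. Its Qki-5 height was 24.3 (17.7 to 32.7) in differentiated cells, against 29.8 (23.0 to 37.9) in isolated cells, at percentile 99.9. Other members also had larger values in the isolated list, such as Mrpl20, at 12.7 in differentiated cells and 15.6 in isolated cells. The libraries and inputs differ, and these differences were not tested. The next members in isolated cells, Mrpl12, Mrpl49 and Mrpl54, stood at 17.4 each, with an upper bound of 23.9, which the interval of Mrpl47 overlaps.

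Mrpl21 had no Qki-5 peak in isolated cells although it came after Mrpl45 for PPARb among peaks within 1000 bp of a gene end, at 22.3 (16.5 to 29.3), below the 23.6 of Mrpl18 inside the gene. Mrpl21 had 24.9 for Qki-5, 34.1 for HA and 12.5 for Pol II in differentiated cells. Mrps5, a small-subunit gene, followed for PPARb at 20.5, with 22.1 for Qki-5. Mrpl39 had 34.9 (25.3 to 46.8) for HA, next to Mrpl45, and 15.1 for PPARb. Mrps16, whose loss in humans causes a combined respiratory chain defect, had 23.2 for Qki-5 and 16.9 for PPARb in differentiated cells, and 13.3 and 7.61 in isolated cells.

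The 10 members with the highest ranks in both lists were completed by Mrpl58, Mrpl17 and Mrps33. Mrpl58, a peptidyl-tRNA hydrolase built into the large subunit that frees stalled ribosomes, had 21.6 for Qki-5 and 17.8 for PPARb in differentiated cells, and Qki-5 peaks of isolated cells at both ends, 11.5 high 121 bp past the start and 12.8 high at the other end. Mrpl17 had 21.6 and 16.0 and no Pol II peak, and its Qki-5 and PPARb centres lay 41 and 50 bp before the start. The NRF1 letters of its promoter begin 10 bp before the start in the sequence above. Mrps33 had 25.4 and 16.0. At the other end of the range, Mrps22, a small-subunit gene, had a Qki-5 height of 8.30, a PPARb height of 8.46, an HA height of 7.92 and a Pol II height of 5.63, and none in isolated cells.

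Tall Pol II peaks were few and stood near or inside other genes. Mrps18b had a Pol II height of 47.0 (38.9 to 56.4), at percentile 99.0, centred 573 bp before its start. That centre lies inside Ppp1r10 as RefSeq draws it, whose annotated start is 756 bp from that of Mrps18b. The peak cannot be assigned to Mrps18b alone. The Qki-5 and PPARb heights of Mrps18b were 21.0 and 16.0, with the Qki-5 centre 290 bp before its start, also inside Ppp1r10. Mrps6 had 42.6 (34.9 to 51.5), centred 21 bp past its start, with 13.3 for Qki-5 and 8.90 for PPARb, and Slc5a3 has an end within 1000 bp. Mrpl41 had 23.3 (17.7 to 30.1), 264 bp before its start, with Pnpla7 and Dph7 nearby. The other 58 bound members lay at 17.7 or below.

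Of the PPARb peaks in isolated cells, Mrpl34 had the tallest, and its PPARb height was 12 (7.92 to 17.5) in differentiated cells, against 9.79 (5.80 to 15.5) in isolated cells. Mrpl49 and Mrps18b had 9.24 each, Mrps16 7.61, and Mrpl47, Mrpl55 and Mrps26 7.07 each, with an interval of 3.76 to 12.1. These are 13 to 18 tags a peak. Mrpl55 was in all 6 lists with the lowest Qki-5 height of the members, 7.19 in differentiated cells, where PPARb stood at 8.01, HA at 19.0 and Pol II at 6.03, and with 9.16 for Qki-5 in isolated cells. Mrps26 had 13.3 for Qki-5 and 12.5 for PPARb in differentiated cells.

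Across the cell kinds, Qki-5 was at 54 members in both (69.2%, against 25.1% of all genes), at 16 in differentiated cells alone and at 2 in isolated cells alone. Shares of the differentiated set found in isolated cells were 77.1% of members and 53.9% of other genes. The median differentiated-cell height was 17.4 where isolated cells had Qki-5 too and 15.2 where they did not, against 16.6 and 12.2 at other genes. The 2 exceptions, Mrps21 at 8.70 and Mrpl50 at 8.24 in isolated cells, had no Qki-5 peak anywhere in the gene in differentiated cells. For PPARb, 7 of 68 members bound in differentiated cells (10.3%) were bound in isolated cells, against 11.3% of other genes.

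**Figure D5:**
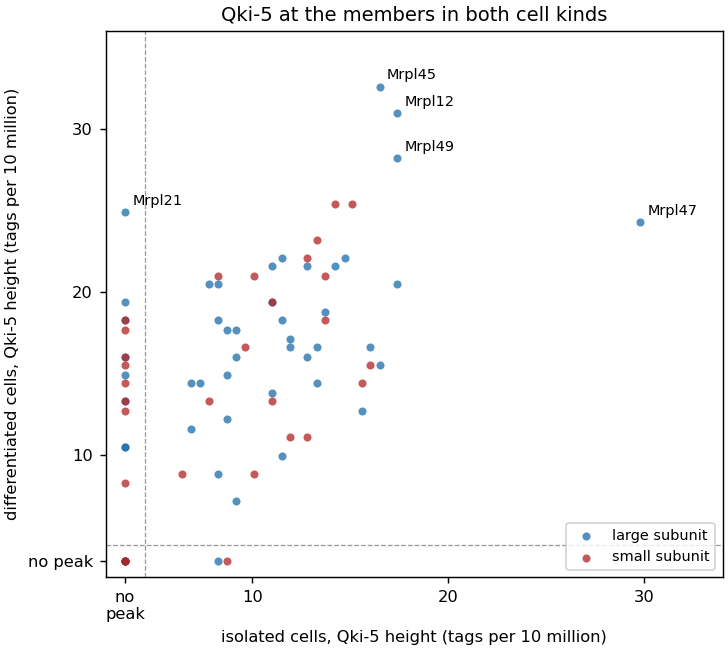
Qki-5 height of each member in differentiated cells (vertical axis) and in isolated cells (horizontal axis), in tags per 10000000, with members lacking a peak set beyond the dashed lines. Most of the 54 members bound in both stand between 7 and 18 in isolated cells, Mrpl47 stands apart at 29.8, and Mrpl21 at 24.9 in differentiated cells has no isolated-cell peak.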

How the data were processed

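Per the submitters' processing notes, HOMER 4.10.1, SAMtools 1.8, Bowtie 1.2.2, Trim Galore 0.4.4 and bcl2fastq 2.19.1.403 were used with the build mm10, in roles that are not stated. Per the file headers, the authors called peaks in each library alone with HOMER at a false discovery rate of 0.001, with input exceeded 4-fold at a Poisson p of 0.0001 and the local 10000 bp exceeded 4-fold, as intervals of 200 bp with centres at least 400 bp apart. The lists of differentiated cells share 1 input, and those of isolated cells another. The tag directories of the differentiated Qki-5 library and of the isolated input have merge in their names, without saying what was merged. Per the file headers, peak height is a signal, the tags of a peak scaled by the authors to a library of 10000000. Per the file headers, fold over input is the authors' ratio of peak tags to input tags. Height per tag ran from 0.402 to 0.792, and height intervals (95%, exact Poisson, from the number of tags) cover counting error only.

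Peak centres were set against gene ends and promoter starts of the RefSeq table of GRCm38.p6, the assembly that mm10 names, with Python 3.11.15, numpy 2.4.6, pandas 2.3.3 and scipy 1.17.1. A gene counts once per list by its tallest peak within 1000 bp, and 1 peak can count for several genes. A percentile is the rank of that height among all bound genes of the list. The counting was tested on simulated data. Motifs were exact letters on both strands of promoter windows, so longer and shorter forms overlap. Exons were not annotated here, and 1 oligodendrocyte marker is not reported here.

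Named members were those in all 6 lists, the 10 with the highest smaller percentile of the Qki-5 and PPARb heights in differentiated cells, the 3 tallest of each list, those with no peak, those with a PPARb peak in isolated cells, those with Qki-5 in isolated cells alone, and up to 3 examples per other pattern; further names were chosen after their values were seen. The members and gene lists were chosen with earlier results of these data known. No test was run, because each group had 1 library. Alternatives were other windows, gene starts, whole genes, the nearest gene alone, an 8-fold threshold, the 2000 tallest peaks, genes without a close neighbour, fold over input in place of height, and other overlaps.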

Additional observations from a re-analysis of the deposited data

How the results depend on the processing

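Of 96 values under alternative settings, 74 stayed within 1.5 times the value given above (for height percentiles, within the 95% interval of the median), 20 moved further and 2 turned round against other genes. Among the 2000 tallest peaks of each list, Qki-5 was at 20.5% of members, PPARb at 6.41%, HA at 6.41% and Pol II at 12.8% in differentiated cells, and Qki-5 at 30.8% in isolated cells, against 6.97%, 4.01%, 4.45%, 8.47% and 9.38% of other genes. Qki-5 and PPARb together were then at 6.41% of members and 2.33% of other genes, and peaks of all 4 antibodies at 0.0% of members and 0.271% of other genes. With so small a share of other genes, a count of 0 among 78 members cannot show a change of direction. At 8-fold over input, Pol II was at 46.2% of members, peaks of all 4 antibodies at 35.9%, isolated-cell Qki-5 at 30.8%, and isolated-cell PPARb, alone or with Qki-5, at 3.85%, against 24.5%, 15.4%, 9.19%, 1.16% and 0.848% of other genes. There the median percentile of isolated-cell PPARb height was 18.7 with 3 members, and 70.8% of isolated-cell member Qki-5 peaks overlapped one of differentiated cells, against 72.4% at other genes. With each peak given to its nearest gene end alone, peaks of all 4 antibodies were at 43.6% of members, isolated-cell PPARb at 5.13% and both factors of isolated cells at 3.85%, against 25.7%, 4.16% and 3.65%. Among genes with no close neighbour, isolated-cell PPARb, alone or with Qki-5, was at 5.88% of members, against 3.61% and 3.30%. With fold over input in place of height, the median percentile of members in differentiated cells came to 50.4 (Qki-5), 48.8 (PPARb) and 43.3 (HA). By construction, fewer peaks are left among the 2000 tallest and at 8-fold over input. The nearest-end setting keeps the peaks but counts each for fewer genes. Other causes were not tested. No paired analysis was possible because each group had 1 library. With 13 to 18 tags per member peak, the isolated-cell PPARb list limits what its counts can show.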
